A study of Homo sapiens with 12 samples.

Results

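The signal recognition, translocon and glycosyltransferase genes are 32 protein-coding genes that carry new proteins into the endoplasmic reticulum (ER). They were taken by gene symbol from the count table, as 32 of its 58735 genes. Earlier results of these data were known when the list was chosen. All 32 symbols were found, each as a single row, and every gene had at least 10 counts in each of the 12 libraries. TIGK cells, a line of human gingival keratinocytes immortalized by transfection with hTERT, were kept at 48 mM glucose. Arg-treated cells received 500 µM L-Arginine (Arg) for 24 or 48 h, and untreated control cells received none. The base medium contained no Arg according to the study's methods, so the control is a culture without added Arg, and the pituitary extract was shared by both groups. Each of the 4 groups had 3 libraries of poly(A) RNA, labelled A, B and C, from a single cell line. The labels do not say that the replicates came from separate cultures, so the p-values measure only the spread between these libraries, which may be technical.

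The main steps of this entry into the ER follow in order, and some of the 32 genes also act after translation. The signal recognition particle (SRP) binds the signal sequence of a protein as it leaves the ribosome and docks on the SRP receptor at the ER membrane. The ribosome then feeds the chain through the SEC61 channel, where the signal peptidase complex removes the signal sequence and the oligosaccharyltransferase (OST) adds a preformed glycan to asparagines. The group held 6 SRP proteins, 2 SRP receptor subunits, 4 genes of the SEC61 channel, and the channel partners SEC62 and SEC63. It also held 4 genes of the translocon-associated protein complex (TRAP), 2 TRAM genes, 5 signal peptidase genes and 7 OST genes. Keratinocytes use this route for secreted and membrane proteins such as matrix proteins, integrins and desmosomal cadherins.

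The libraries held between 16542243 and 19040964 counts. Every member had at least 325 counts in each library apart from SEC61A2 (at least 39) and SRP19 (at least 119). The 32 genes took between 0.516% and 0.556% of the counts of a library. Their share was 0.537% ± 0.0103 in the 24 h control, 0.533% ± 0.0208 with Arg at 24 h, 0.535% ± 0.0069 in the 48 h control and 0.538% ± 0.00418 with Arg at 48 h (SD, n = 3 each). The shares of the 4 groups therefore lay within each other's spread. Control replicate B at 48 h stood apart from its replicates, with 1.55% of counts on mitochondrially encoded genes against 0.906% and 0.707%. The main 48 h control results of the 32 genes are also given without it, and those of the other gene lists only with it. The keratinocyte label held: KRT5, KRT14 and 3 other keratinocyte markers summed to between 32980 and 44650 CPM (counts scaled to a common effective library size). Sums of 5 fibroblast markers lay between 11.2 and 16.01 CPM at 24 h and between 23.5 and 29.1 CPM at 48 h, so they were higher at 48 h, and their part in the time comparisons was not tested. COL1A1 made up most of these sums, and COL1A2 was at 0 in 10 of the 12 libraries. Markers of melanocytes (at most 3.05 CPM), leukocytes (at most 0.45 CPM) and endothelial cells (at most 2.12 CPM) were near 0.

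Start-site sequences are shown for SEC61A1, SRPRB, SSR3 and SSR4. RefSeq (GRCh38.p14) gave windows of 250 bases before to 50 bases after an annotated start for 27 of the 32 genes, 34 windows in all. No window was listed for RPN1, SPCS1, SRPRA, STT3B or TRAM1. A few short motifs known from ER and amino acid stress were searched on both strands. These were the ERSE (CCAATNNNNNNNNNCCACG), the core of the UPRE (TGACGTGG) and the CARE (TGATGNAAT). Capitals mark a match, and CCACGTCA is the UPRE core read on the opposite strand. SEC61A1, which encodes the pore subunit, has 2 windows on the plus strand of chromosome 3, at chr3:128051391-128051690 and chr3:128052187-128052486, and neither held a match. SRPRB, the membrane anchor of the SRP receptor, has one window at chr3:133805565-133805864 (plus strand), which held the CARE letters at its far end. SSR3 and SSR4 encode TRAP subunits. The UPRE core letters lay in the most downstream of 3 SSR3 windows (chr3:156554076-156554375, minus strand) and in the more downstream of 2 SSR4 windows (chrX:153794418-153794717, plus strand). The other windows of SSR3 and SSR4 held no match and are not shown. The same holds for the windows of SPCS3, STT3A and SEC63, whose values are also described below.
SEC61A1 upstream start: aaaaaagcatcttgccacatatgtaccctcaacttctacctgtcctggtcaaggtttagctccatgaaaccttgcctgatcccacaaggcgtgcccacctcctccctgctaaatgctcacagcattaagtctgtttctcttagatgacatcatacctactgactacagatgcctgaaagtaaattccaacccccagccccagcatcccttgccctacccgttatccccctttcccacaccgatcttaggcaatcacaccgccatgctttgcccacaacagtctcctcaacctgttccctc
SEC61A1 downstream start: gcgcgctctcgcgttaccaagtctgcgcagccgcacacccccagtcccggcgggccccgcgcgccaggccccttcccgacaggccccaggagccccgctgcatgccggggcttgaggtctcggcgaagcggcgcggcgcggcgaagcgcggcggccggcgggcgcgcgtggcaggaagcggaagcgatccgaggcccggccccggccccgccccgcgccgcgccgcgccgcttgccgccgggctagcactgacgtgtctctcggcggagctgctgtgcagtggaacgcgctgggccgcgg
SRPRB: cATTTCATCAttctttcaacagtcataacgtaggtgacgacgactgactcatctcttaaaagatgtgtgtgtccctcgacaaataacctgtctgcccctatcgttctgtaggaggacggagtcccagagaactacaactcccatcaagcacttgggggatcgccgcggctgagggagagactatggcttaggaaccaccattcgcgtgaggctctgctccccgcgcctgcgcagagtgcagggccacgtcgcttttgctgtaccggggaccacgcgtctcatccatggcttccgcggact
SSR3 most downstream start: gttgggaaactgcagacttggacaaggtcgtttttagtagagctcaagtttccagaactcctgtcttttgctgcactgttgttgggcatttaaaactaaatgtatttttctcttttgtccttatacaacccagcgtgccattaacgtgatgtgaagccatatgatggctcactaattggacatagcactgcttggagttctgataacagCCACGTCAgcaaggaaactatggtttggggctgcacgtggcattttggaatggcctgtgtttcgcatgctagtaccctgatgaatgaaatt
SSR4 more downstream start: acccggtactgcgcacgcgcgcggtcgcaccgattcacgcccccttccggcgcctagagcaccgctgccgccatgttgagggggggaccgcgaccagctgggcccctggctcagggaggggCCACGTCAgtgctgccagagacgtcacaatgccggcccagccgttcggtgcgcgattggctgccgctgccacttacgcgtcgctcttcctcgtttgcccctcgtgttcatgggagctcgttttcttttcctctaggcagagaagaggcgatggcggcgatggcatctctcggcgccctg

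The UPRE core letters were found in 4 of the 34 windows (11.8%), those of SSR3, SSR4, SEC62 and SRP19, and in 0.729% of all 35116 windows. The CARE letters were found in 1 of 34 (2.94%) against 0.991% of all windows, and the ERSE letters in 0 of 34 against 0.0769%. The CCAAT letters alone, which the ERSE contains, were found in 16 of 34 windows (47.1%) against 34.6%. The windows of the 32 genes had a median GC content of 65.8%, against 58.7% for all windows. These are matches of letters and no evidence of binding, and the windows of a gene overlap or share its locus.

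Levels between genes were compared as TPM, in which counts are divided by the exonic length given in the table and scaled to a common sum per library. The median of the 32 genes was 113 TPM over the 12 libraries, against 13.3 TPM for the 15148 genes tested in the model of all libraries. The OST held the highest member, DAD1, a small structural subunit, with 782 TPM, and also RPN2 (512 TPM), DDOST (408 TPM) and RPN1 (385 TPM). OSTC, which links the STT3A form of the OST to the translocon, had 271 TPM. Of the catalytic subunits, STT3A, which works with the translocon, had 202 TPM and STT3B, which also acts after translation, had 93.2 TPM. STT3A exceeded STT3B by 2.01 to 2.35 times in every library.

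Among SRP genes, SRP9 (542 TPM) and SRP14 (444 TPM), which form the Alu-domain pair that slows elongation, were the highest. SRP72 (120 TPM), SRP68 (93.8 TPM) and SRP54 (89.0 TPM), the GTPase that binds the signal sequence, were lower, and SRP19 had 3.60 TPM. The 2 receptor subunits had 198 TPM (SRPRA) and 77.5 TPM (SRPRB). In the channel, SEC61A1 (279 TPM), SEC61B (265 TPM) and SEC61G (200 TPM) lay close together, and the paralog SEC61A2 had 3.51 TPM, the lowest level of the 32. SEC61A1 exceeded SEC61A2 by 42.8 to 143 times across the libraries. SEC62 (45.2 TPM) and SEC63 (48.8 TPM), which serve post-translational import, lay between these.

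In the TRAP complex, SSR3 had 174 TPM, SSR1 59.2 TPM, SSR2 54.1 TPM and SSR4 53.6 TPM. TRAM1, which eases entry of some chains into the channel, had 273 TPM and exceeded its paralog TRAM2 (23.5 TPM) by 9.49 to 14.3 times. Of the signal peptidase, SPCS2 (180 TPM), SPCS3 (106 TPM) and SPCS1 (40.8 TPM) are accessory subunits, and SEC11A (88.0 TPM) and SEC11C (17.2 TPM) are the alternative catalytic subunits. SEC11A exceeded SEC11C by 4.17 to 5.98 times. The order depends on the length used, since the exonic length adds up all annotated isoforms. With the length of the canonical transcript in GENCODE v44, SEC61G moved from rank 12 to rank 2, SSR4 from 25 to 11, SSR2 from 24 to 15 and SEC11A from 21 to 9. DAD1 stayed first and SEC61A2 last, and the range of the SEC61A1 ratio over SEC61A2 was 35.9 to 120 times.

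**Figure D1:**
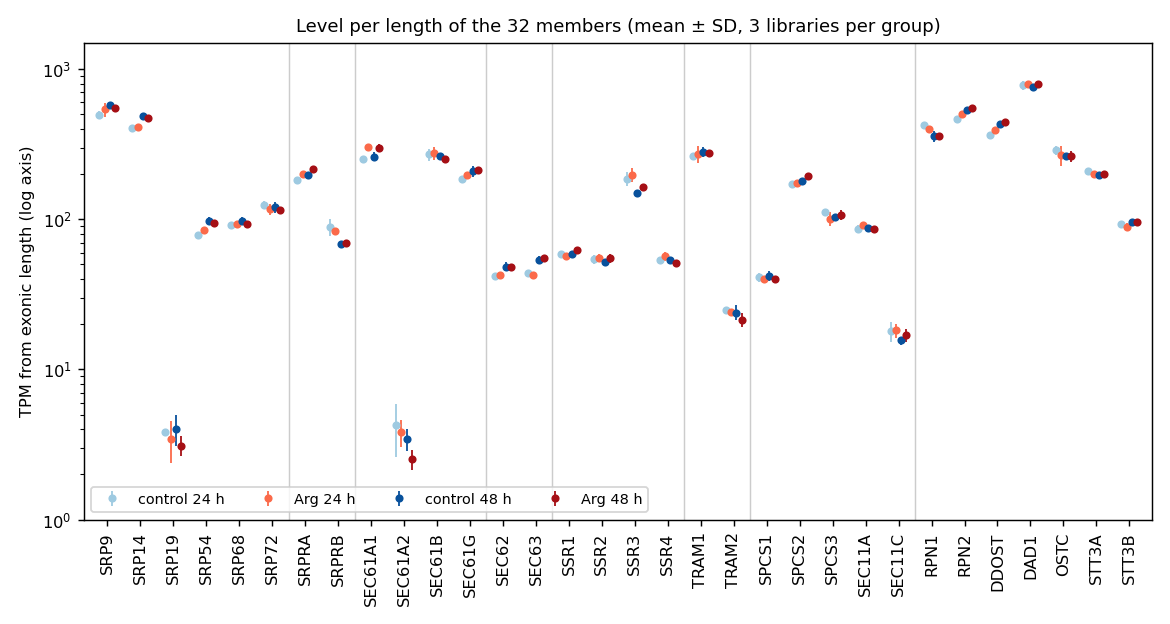
Level of the 32 genes in TPM from exonic length (log axis), by role from left to right, as mean ± SD of 3 libraries per group. DAD1 lay between 763 and 794 TPM in the 4 groups, and SEC61A2 and SRP19 lay below 5 TPM.

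Replicate spread was low for most of the genes, with a median coefficient of variation between 3.71% and 5.70% in the 4 groups. SEC61A2 and SRP19 had the largest, up to 34.8% and 30.8%. Both overlap a gene on the opposite strand that has many more counts, NUDT5 (1179% of the SEC61A2 counts) and REEP5 (886% of the SRP19 counts). Whether the counting used the strand is not stated, so values of these 2 genes are uncertain. The same holds to a lesser degree for 6 other members that overlap a gene with at least 10% of their counts: SRPRA, SEC61A1, SSR4, TRAM2, SPCS1 and, on the same strand, STT3A. Rows of pseudogenes held at most 1.64% of the counts of a member.

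To ask whether Arg changed this machinery, the Arg-treated group was set against the untreated control separately for 24 and 48 h, by edgeR's quasi-likelihood test, with Benjamini–Hochberg adjustment over all tested genes. At 24 h, none of the 32 genes passed an adjusted p under 0.05 in edgeR, while 3.84% of the 14279 tested genes were lower and 2.79% higher. DESeq2 called 1 of the 32, SEC61A1, and 7.94% of all tested genes in either direction. At an unadjusted p under 0.05, 1 gene was lower (3.12%), SPCS3, and 1 was higher, SEC61A1, against 11.9% and 10.8% of all tested genes. The log2 fold changes (Arg over control) lay between -0.20 for SRP19 and 0.21 for SEC61A1, and 21 of 32 were below 0 (65.6%, against 49.5% of all tested genes). Their median was -0.02, against 0.00 for all tested genes, and their median size was 0.07, against 0.17. The 95% confidence interval lay within 0.25 of 0 on the log2 scale for 14 genes and within 0.5 for 30.

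SEC61A1 had 342.5, 330.5 and 318.6 CPM in the 24 h control libraries A, B and C and 387.1, 384.2 and 377.6 CPM with Arg. All Arg libraries lay above all control libraries. The log2 fold change was 0.21 ± 0.07 (SE), or 15.97% higher, with an edgeR adjusted p of 0.0862 and a DESeq2 adjusted p of 0.0425. DESeq2 was the only alternative in which SEC61A1 passed, and the largest adjusted p among the edgeR alternatives was 0.129. When a library was left out, the edgeR adjusted p lay between 0.0860 and 0.297. RUVBL1, which overlaps SEC61A1 on the opposite strand with 43.9% as many counts, had a log2 fold change of 0.02 ± 0.08 (edgeR adjusted p = 0.928).

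SPCS3, an accessory subunit needed for signal peptidase activity, had 215.7, 195.7 and 225.2 CPM in the 24 h control and 208.8, 173.0 and 175.6 CPM with Arg. The groups overlapped, since Arg replicate A lay above control replicate B. The log2 fold change was -0.19 ± 0.09 with an edgeR adjusted p of 0.213. Without Arg replicate A, it was -0.29 with an edgeR adjusted p of 0.0461, where 7.65% of all tested genes were called in either direction.

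By role, the medians at 24 h were -0.02 for SRP, -0.03 for the SRP receptor, 0.01 for the channel, -0.07 for SEC62 and SEC63, 0.00 for TRAP, -0.04 for TRAM, -0.04 for the signal peptidase and -0.11 for the OST. In the OST, 5 of 7 genes were below 0, with OSTC at -0.17 ± 0.10, RPN1 at -0.12 ± 0.08, STT3A at -0.12 ± 0.07 and STT3B at -0.11 ± 0.08, and RPN2 at 0.06 ± 0.07 and DDOST at 0.07 ± 0.07. None of these 7 had an unadjusted p under 0.05. For the paralogs, SEC61A2 had -0.18 ± 0.26, SEC11A 0.03 ± 0.09, SEC11C -0.04 ± 0.13, TRAM1 0.01 ± 0.09 and TRAM2 -0.09 ± 0.09. The Arg and control CPM values did not overlap for 4 genes (12.5%), against 26.2% of all tested genes. SEC61A1 and RPN2 were the 2 above the control, and SEC63 and STT3A were the 2 below it.

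At 48 h, again none of the 32 genes passed the adjusted threshold in edgeR, and DESeq2 also called none (1.24% of all tested genes). Of the 14562 genes tested, 0.117% were lower and 0% higher at an adjusted p under 0.05. At an unadjusted p under 0.05, no member was lower and 1 was higher, SEC61A1, against 7.49% and 5.94% of all tested genes. The log2 fold changes lay between -0.47 for SEC61A2 and 0.18 for SEC61A1, with a median of -0.02 and 20 of 32 below 0 (62.5%, against 49.7%). The interval lay within 0.25 of 0 for 26 genes and within 0.5 for 30.

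SEC61A1 had 309.6, 343.5 and 305.6 CPM in the 48 h control and 352.3, 349.9 and 382.5 CPM with Arg. All Arg libraries were again above the control, although control replicate B came close. The log2 fold change was 0.18 ± 0.07, or 12.98% higher, with an edgeR adjusted p of 0.295 and a range of 0.249 to 0.304 over the alternatives other than leaving out a library, and of 0.00571 to 0.732 when a library was left out. RUVBL1 had -0.10 ± 0.11 (edgeR adjusted p = 0.717).

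SPCS3 had 183.6, 190.8 and 177.5 CPM in the 48 h control and 203.3, 187.8 and 172.0 CPM with Arg, so the groups overlapped. Its log2 fold change was 0.03 ± 0.07 (edgeR adjusted p = 0.900), and 0.06 ± 0.07 without control replicate B (adjusted p = 0.595). The difference of the SPCS3 effects between the times was 0.22 ± 0.12 on the log2 scale (edgeR interaction, adjusted p = 0.777).

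The number of calls at 48 h depended on control replicate B. Without it, SEC61A1 had a log2 fold change of 0.24 ± 0.06 (edgeR adjusted p = 0.00571). SRP19 had -0.39 ± 0.19 (edgeR adjusted p = 0.403) with replicate B and -0.52 ± 0.17 (adjusted p = 0.0371) without it. TRAM2 had -0.18 ± 0.10 (edgeR adjusted p = 0.470) with replicate B and -0.27 ± 0.09 (adjusted p = 0.0374) without it. Without replicate B 15.9% of all tested genes were called, so 3 of 32 is not above the background. SRP19 had 10.6, 8.71 and 13.6 CPM in the 48 h control and 9.04, 9.26 and 6.83 CPM with Arg. TRAM2 had 46.1, 37.2 and 45.5 CPM in the control and 37.4, 34.7 and 41.6 CPM with Arg. For both genes replicate B was the lowest of the control libraries and lay within the range of the Arg libraries.

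The median at 48 h was -0.08 for SRP, where all 6 genes were below 0, 0.05 for the SRP receptor, -0.04 for the channel and -0.004 for SEC62 and SEC63. It was 0.05 for TRAP, where 3 of 4 were above 0, -0.12 for TRAM, where both were below 0, and 0.03 for the signal peptidase. It was -0.01 for the OST, whose 7 log2 fold changes all lay between -0.03 (OSTC) and 0.04 (DDOST). Without control replicate B these medians were, in the same order, -0.10, 0.06, -0.01, 0.02, 0.08, -0.14, 0.06 and -0.004, and the median of the 32 genes was -0.01 with 18 below 0. With replicate B, SEC61A2 had -0.47 ± 0.26, SEC11A -0.04 ± 0.07, SEC11C 0.10 ± 0.11, TRAM1 -0.05 ± 0.07, TRAM2 -0.18 ± 0.10, STT3A -0.01 ± 0.06 and STT3B -0.02 ± 0.06. The groups did not overlap for 7 genes (21.9%), against 17% of all tested genes. Without control replicate B, 15 did not overlap (46.9%), against 45% of all tested genes. With it, SRPRA, SEC61A1, SSR1, SSR3, SPCS2 and DDOST lay above the control and SEC61B lay below it. SEC61A1 was the 1 gene of the 32 that lay above the control without overlap at both times. The share of all tested genes that did so was not computed, so this count has no background beside it.

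**Figure D2:**
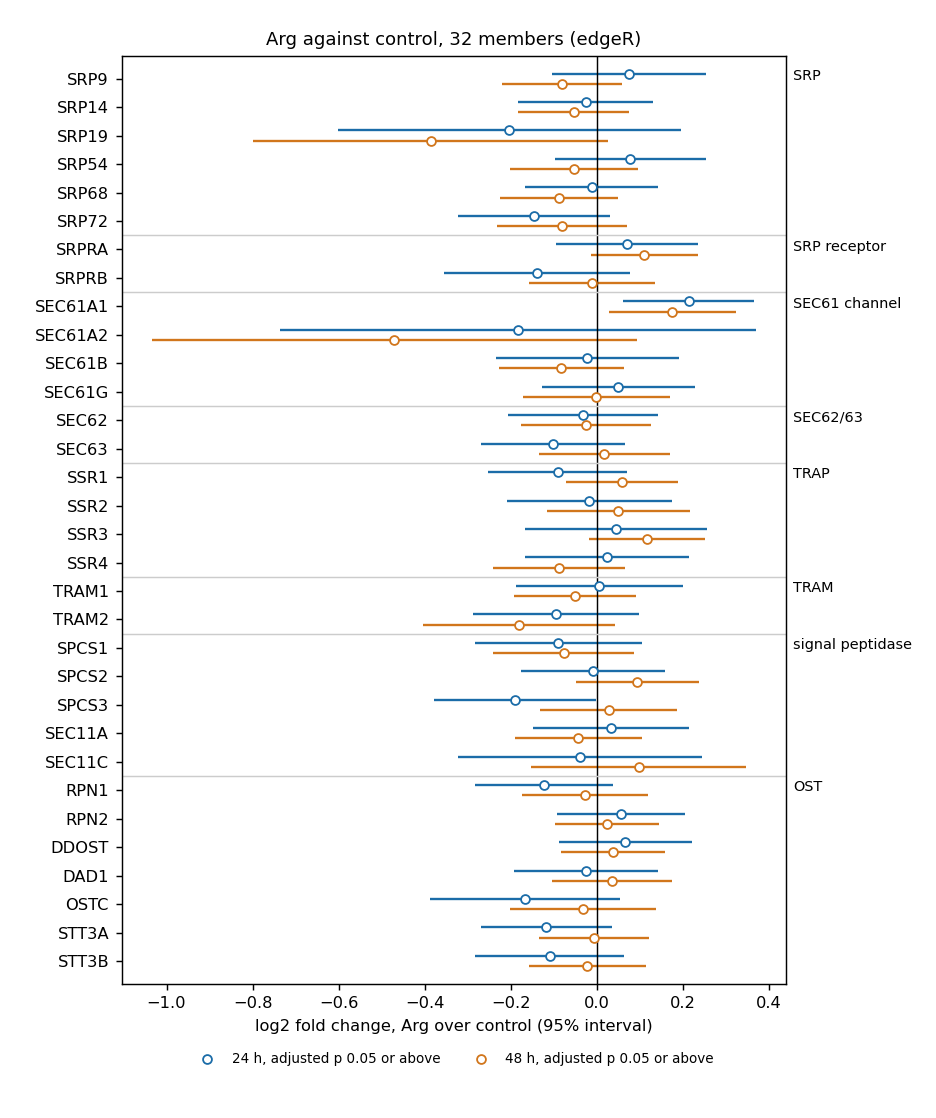
Log2 fold change of Arg over control for each of the 32 genes at 24 h (blue) and 48 h (orange), with 95% confidence intervals from edgeR and n = 3 libraries per group. All circles are open, since no gene had an adjusted p under 0.05, and SEC61A1 is the only gene whose 2 intervals both lie above 0.

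The Arg effect at 48 h was tested against that at 24 h in a model of all 12 libraries. No member passed an adjusted p under 0.05 in edgeR or in DESeq2 (0.0924% of all tested genes), and none had an unadjusted p under 0.05 in edgeR, against 0.0132% and 6.87% of the 15148 genes tested. For SEC61A1 the difference was -0.04 ± 0.10 (edgeR adjusted p = 0.974), with an interval from -0.24 to 0.16. Across the 32 genes the log2 fold changes at the 2 times had a Pearson's r of 0.53 and a Spearman's rho of 0.32, against 0.43 and 0.43 over 13996 genes. The sign was the same at both times for 19 of the 32 genes, against 67.6% of the 13996. These are descriptions across genes, which are not independent replicates. The 2 times share no library.

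Time in culture was compared within each treatment, as 48 h over 24 h. In the control, 4 of the 32 genes fell (12.5%, against 10% of the 14449 genes tested) and 0 rose (against 9.9%), by edgeR with adjusted p-values. DESeq2 gave the same counts, with 21.4% of all tested genes called in either direction. At an unadjusted p under 0.05, 7 were lower (21.9%, against 17%) and 3 were higher (9.38%, against 17.1%). With Arg, 4 genes fell (12.5%, against 14% of 14398) and 1 rose (3.12%, against 14.3%), with 7 lower (21.9%, against 19.2%) and 1 higher (3.12%, against 19.3%) at an unadjusted p. The shares that fell were thus near the background. In bulk RNA, fewer cells of a kind and less RNA per cell cannot be told apart. The genes described next were chosen after their values were seen.

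SRPRB had 102, 88.3 and 121 CPM in the 24 h control libraries A, B and C and 72.2, 76.1 and 75.2 CPM at 48 h. With Arg it had 99.7, 93.1 and 90.1 CPM at 24 h and 75.0, 74.3 and 72.8 CPM at 48 h. In both treatments all 48 h libraries lay below all 24 h libraries. The fall was -0.47 ± 0.11 on the log2 scale in the control (edgeR adjusted p = 0.0109) and -0.34 ± 0.07 with Arg (edgeR adjusted p = 0.0017). The other receptor subunit, SRPRA, had 0.00 ± 0.07 and 0.04 ± 0.07.

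SSR3, the TRAP subunit known as gamma, had 245, 207 and 271 CPM in the 24 h control and 174, 182 and 181 CPM at 48 h. With Arg it had 280, 239 and 226 CPM at 24 h and 189, 204 and 190 CPM at 48 h. The times did not overlap in either treatment, and the fall was -0.42 ± 0.09 (edgeR adjusted p = 0.0104) and -0.35 ± 0.08 (edgeR adjusted p = 0.0021). SSR4, the delta subunit, fell with Arg by 0.22 on the log2 scale (SE 0.08, edgeR adjusted p = 0.0434) and had -0.11 ± 0.08 in the control (adjusted p = 0.366), with an interaction of -0.11 ± 0.11 (adjusted p = 0.906). SSR4 had 75.5, 66.0 and 68.8 CPM at 24 h and 58.9, 58.2 and 62.5 CPM at 48 h with Arg, without overlap. The SSR4 call was lost in 5 of the 6 fits that left out a library, with a largest adjusted p of 0.174, with library size only (adjusted p = 0.138) and with no filter on low counts (adjusted p = 0.0751). IDH3G, which overlaps SSR4 on the opposite strand, had 0.13 ± 0.09 with Arg. SSR1 and SSR2 did not pass in either treatment.

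RPN1, an OST subunit that holds the chain near the active site, had 484, 440 and 492 CPM in the 24 h control and 393, 335 and 387 CPM at 48 h. With Arg it had 453, 432 and 413 CPM at 24 h and 360, 365 and 370 CPM at 48 h. The times did not overlap, and the fall was -0.34 ± 0.08 (edgeR adjusted p = 0.0135) and -0.24 ± 0.06 (edgeR adjusted p = 0.00716). STT3A fell in the control, from 438, 432 and 439 CPM to 384, 372 and 379 CPM, by 0.19 on the log2 scale (SE 0.06, edgeR adjusted p = 0.0481). With Arg it had -0.08 ± 0.06 (adjusted p = 0.359). CHEK1, which overlaps STT3A on the same strand with 34% as many counts, had -0.20 ± 0.08 in the control (adjusted p = 0.0874) and -0.16 ± 0.07 with Arg (adjusted p = 0.0893). In Arg against control at 24 h, CHEK1 had -0.12 ± 0.08 and STT3A -0.12 ± 0.07. Whether reads shared by the 2 genes play a part was not tested. The STT3A call was lost in 5 of the 6 fits without a library, with library size only (adjusted p = 0.141) and with no filter on low counts (adjusted p = 0.0816). The time effects of STT3A in the 2 treatments were not shown to differ (interaction 0.11 ± 0.09, edgeR adjusted p = 0.866). The other OST subunits did not pass the test, and of these RPN2 had 0.10 ± 0.06 and 0.06 ± 0.06, and DDOST had 0.14 ± 0.07 and 0.11 ± 0.06.

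SEC63, a membrane J-domain protein that recruits the ER chaperone BiP to the channel, was the 1 gene that rose. With Arg it had 99.7, 101 and 95.2 CPM at 24 h and 124, 125 and 114 CPM at 48 h, without overlap, a rise of 0.30 ± 0.07 (edgeR adjusted p = 0.00378). This call was lost with a correction for exonic length, where SEC63 had 0.19 ± 0.07 (edgeR adjusted p = 0.0555). In the control it had 108, 103 and 107 CPM at 24 h and 113, 124 and 121 CPM at 48 h, also without overlap, with 0.18 ± 0.08 (edgeR adjusted p = 0.109), and 0.09 ± 0.08 with that correction (adjusted p = 0.414). The interaction for SEC63 was 0.12 ± 0.10 (edgeR adjusted p = 0.875). Its partner SEC62 had 0.11 ± 0.08 and 0.11 ± 0.07.

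Among the remaining genes, SRP14 and SRP54 had an unadjusted p under 0.05 on the higher side in the control, with 0.16 ± 0.07 and 0.22 ± 0.08. SPCS3 (-0.20 ± 0.08), OSTC (-0.22 ± 0.08) and SEC11C (-0.31 ± 0.14) did so on the lower side. With Arg, SEC61A2 (-0.67 ± 0.26), SEC61B (-0.20 ± 0.08) and TRAM2 (-0.23 ± 0.09) were on the lower side. SEC61A1 had -0.04 ± 0.07 and -0.08 ± 0.06, TRAM1 0.00 ± 0.08 and -0.06 ± 0.08, and STT3B -0.06 ± 0.07 and 0.02 ± 0.07. The median of the 32 genes was -0.07 in both treatments, against 0.01 in the control and 0.00 with Arg for all tested genes. The times did not overlap for 15 genes in each treatment (46.9%), against 39% of all tested genes in the control and 42.5% with Arg.

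**Figure D3:**
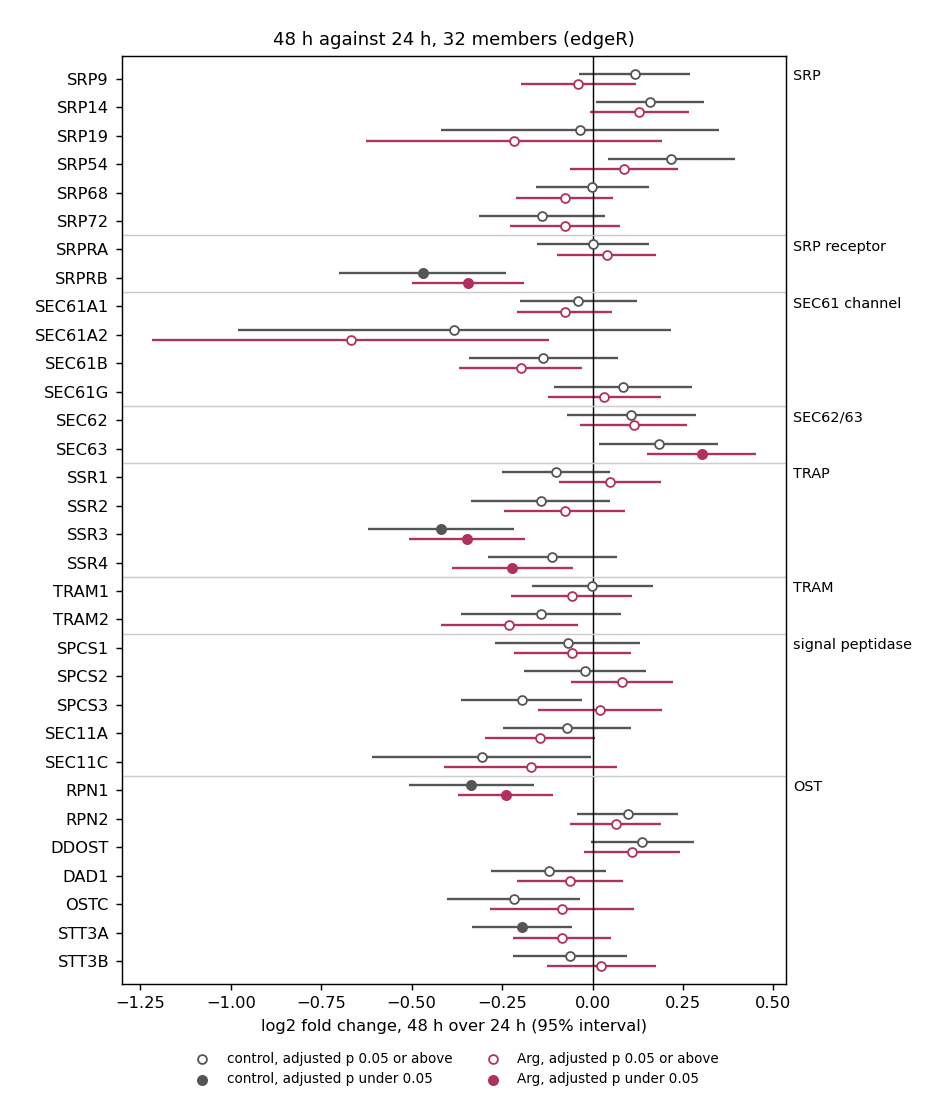
Log2 fold change of 48 h over 24 h for each of the 32 genes in the control (grey) and with Arg (red), with 95% confidence intervals from edgeR and n = 3 libraries per group. Filled circles mark an adjusted p under 0.05: SRPRB, SSR3 and RPN1 fell in both treatments, STT3A in the control and SSR4 with Arg, and SEC63 rose with Arg.

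SRPRB, SSR3 and RPN1 were called in both treatments, as 3 of the 4 genes that fell in each, and the 2 comparisons share no library. The share of all tested genes called lower in both treatments was not computed, so whether 3 of 32 is unusual is not known. The sign was the same in both for 27 of the 32 genes, against 77.5% of 14057 genes. Pearson's r across the 32 genes was 0.80, against 0.68 over all genes, as a description. The control calls were lost without control replicate A or C at 24 h, while the folds stayed of similar size. No member passed in these fits, and 5.59% and 6.7% of all genes were called in either direction, against 19.9% with all libraries. Without A and without C, SRPRB had -0.48 and -0.35 (edgeR adjusted p = 0.0517 and 0.0553), SSR3 had -0.41 and -0.34 (adjusted p = 0.0575 and 0.0592), and RPN1 had -0.32 and -0.31 (adjusted p = 0.0699 and 0.0682). Without replicate B at 24 h, 7 fell, and SPCS3, SEC11C and OSTC were added. In that fit 1719 of all 14866 tested genes fell, and 22.2% were called in either direction. Without control replicate B at 48 h, SRPRB, SSR3 and RPN1 fell and STT3A did not pass (-0.19 ± 0.07, edgeR adjusted p = 0.0692). There 1268 of all 14749 tested genes fell, and 16.4% were called in either direction.

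The number of members called on each side over time also depended on the scaling. With library size alone in place of TMM factors, 3 members fell and 4 rose in the control (SRP14, SRP54, SEC63 and DDOST), and over all genes 1008 fell and 1845 rose, against 1451 and 1431. With Arg, 3 fell and 2 rose (SEC63 and SRP14), and over all genes 1453 fell and 2568 rose, against 2012 and 2060. With a correction for exonic length, 6 members fell in the control and 5 with Arg and 0 rose in either, and over all genes 1862 fell and 1192 rose in the control and 2422 and 1584 with Arg. SRPRB, SSR3 and RPN1 fell in both treatments under each of these 3 scalings.

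**Figure D4:**
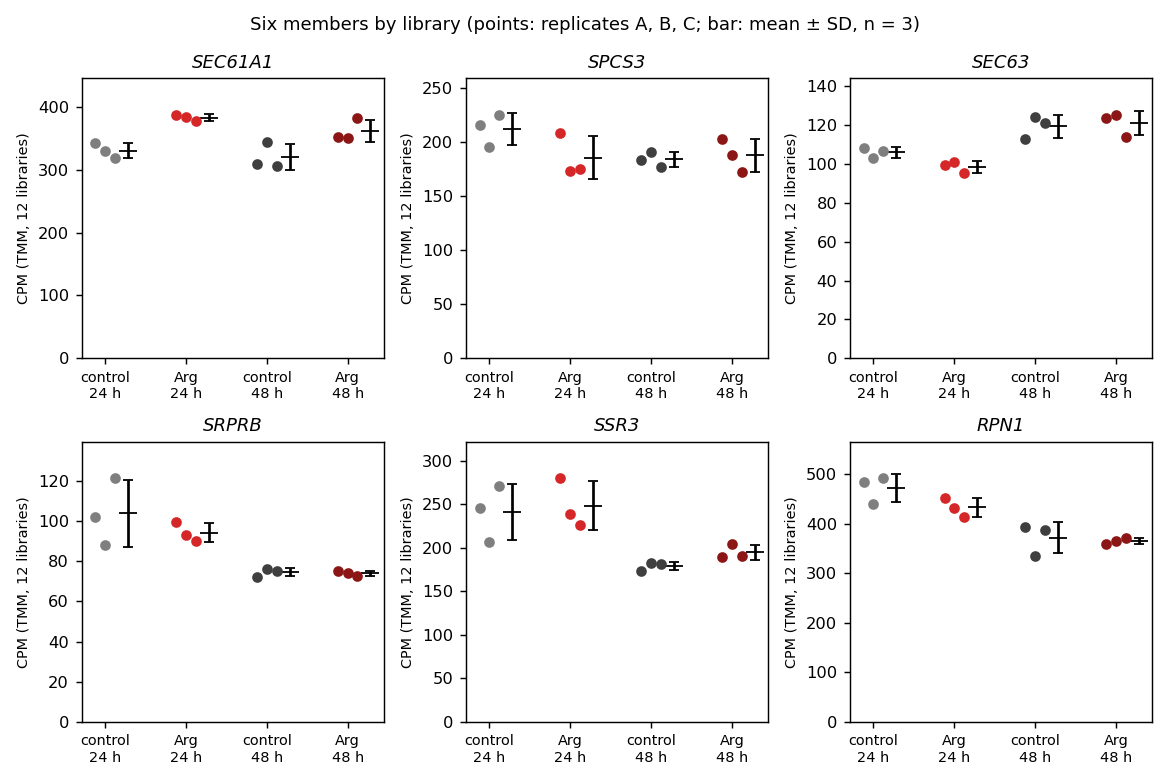
CPM (TMM over 12 libraries, axes from 0) of SEC61A1, SPCS3, SEC63, SRPRB, SSR3 and RPN1 in each library, with the mean ± SD of 3 libraries beside the points. The SEC61A1 points with Arg lie above those of the control at both times, and the 48 h points of SRPRB, SSR3 and RPN1 lie below the 24 h points of the same treatment.

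The 32 genes were set beside 113 genes of neighbouring ER functions from 11 lists, 112 of which were tested at 24 h. With Arg at 24 h, 2 of these 112 fell and 1 rose by edgeR's adjusted p, against 3.84% and 2.79% of all tested genes. EDEM1, which draws misfolded glycoproteins from folding, fell by 0.49 on the log2 scale (SE 0.12, adjusted p = 0.0254), from 19.1 ± 0.936 to 13.6 ± 0.734 CPM. HERPUD1, a scaffold of ER-associated degradation, fell by 0.32 (SE 0.09, adjusted p = 0.0411), from 97.4 ± 9.41 to 78.0 ± 2.92 CPM. OS9, a lectin of the same pathway, rose by 0.39 ± 0.09 (adjusted p = 0.0116), from 70.6 ± 3.26 to 92.7 ± 7.02 CPM (SD, n = 3 for each). The median of the 112 was -0.01. At an unadjusted p under 0.05, 10 were lower and 5 higher, against 11.9% and 10.8% of all tested genes. None of these counts is above the background. The chaperones HSPA5 (BiP, -0.29 ± 0.09, edgeR adjusted p = 0.0508) and PDIA4 (-0.23 ± 0.08, adjusted p = 0.0927) were among the 10. No gene of the ER stress sensors and factors list or of the COPII coat list had an unadjusted p under 0.05 at 24 h. DDIT3, ATF6B and SEC16A of these lists did at 48 h.

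At 48 h, 0 of 111 tested genes of these lists passed edgeR's adjusted p, against 0.117% of all tested genes lower and 0% higher. At an unadjusted p under 0.05, 6 were lower and 12 higher, against 7.49% and 5.94% of all tested genes. TMEM258, an OST subunit outside the 32, had -0.27 ± 0.11 at 24 h (edgeR adjusted p = 0.138) and -0.39 ± 0.07 at 48 h (edgeR adjusted p = 0.0765). Its CPM was 58.9 ± 1.36 in the 48 h control and 45.0 ± 0.490 with Arg, without overlap. CALR, a lectin chaperone for new glycoproteins, had 0.23 ± 0.07 at 48 h and UGGT1, which reglucosylates unfolded ones, 0.28 ± 0.07. KTN1, which encodes kinectin, had 0.21 ± 0.09. The edgeR adjusted p-values of CALR, UGGT1 and KTN1 were 0.222, 0.161 and 0.349. The others lower at an unadjusted p were EMC7, NOMO3, CAMLG, EMC8 and DDIT3 (-0.39 ± 0.17). The others higher were OS9 (0.28 ± 0.08), ATF6B (0.30 ± 0.11), SEC16A (0.16 ± 0.07), DPM2, NUS1, MAN1B1, PPIB, SDF2L1 and DERL3. Each of these others had an edgeR adjusted p of 0.196 or above. These 48 h values include control replicate B and are not given without it, where 15.9% of all tested genes were called in either direction.

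The cytosolic ribosomal protein genes, which share the annotation of cotranslational targeting with the 32 genes, had other values in the same libraries. Of 84 tested, 5 fell at 24 h and 5 at 48 h by edgeR's adjusted p, against 3.84% and 0.117% of all tested genes, and none rose. At an unadjusted p under 0.05, 42 and 57 were lower, against 11.9% and 7.49% of all tested genes. On the higher side there were 0 and 1, against 10.8% and 5.94%. The medians were -0.17 and -0.19. The 48 h values of these ribosomal protein genes are given only with control replicate B. This list was chosen after its values were known, and the difference from the 32 genes was not tested. Among the 32 genes the log2 fold change at 24 h had a Spearman's rho of -0.38 with exonic length, against 0.05 over all tested genes, and -0.03 against 0.16 at 48 h.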

How the data were processed

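Poly(A) RNA of TIGK cells was sequenced in 12 libraries, and the labels gave the treatment and time of each. The authors filtered reads with fastp, aligned them to GRCh38 (hg38) by STAR and made gene counts by featureCounts, and the deposited values are raw counts with exonic lengths. Tool versions, annotation release and strand setting are not given in the sources used here, so overlapping genes are uncertain. Each pair of groups was fitted with edgeR 4.0.16 (R 4.3.3, TMM, filterByExpr, quasi-likelihood test) on all genes, with Benjamini–Hochberg adjustment over all tested genes, and the interaction in a model of 12 libraries. A standard error is the log2 fold change divided by the signed root of the F statistic. CPM values use TMM factors over the 12 libraries. Scripts were checked on simulated data. The 32 members, the lists and the tests were chosen with earlier results of these data known. All 32 members are named, those with an unadjusted p under 0.05 in an Arg comparison and 4 paralog pairs with their values, and at most 4 genes per other list. Alternatives were DESeq2 1.42.0, its size factors, library size only, 2 other filters on low counts, all 12 libraries in a single model, a replicate block, a lowess correction for exonic length (span 0.3), with and without the block, and leaving out each library. Canonical transcript lengths came from GENCODE v44, matched by gene ID for 58207 of 58735 genes, and start-site sequences from RefSeq, matched by symbol.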

Additional observations from a re-analysis of the deposited data

How the results depend on the processing

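Replicates of a group differed by more than counting noise (chi-square per degree of freedom of 3.66 to 23.9 over genes). Arg at 24 h: DESeq2 called 1 member higher in place of 0. Control over time: members that rose numbered 4 with library size only, 1 in the model of all 12 libraries and 1 with the replicate block in place of 0, and length correction with the replicate block gave 7 that fell and 1 that rose. Over all genes, 19.7%, 24.4%, 28% and 27.8% were called in either direction in these 4 fits, against 19.9%. Arg over time: 2 rose with library size only, and 0 with length correction, with or without the replicate block, in place of 1. Leaving out a library gave 0 to 1 members lower with Arg at 24 h, 0 to 2 lower and 0 to 1 higher at 48 h, 0 to 7 that fell over time in the control, and a median between -0.11 and 0.011 over time with Arg. The share of all genes called in either direction in these fits also varied widely. It was 2.45% to 10.4% for Arg at 24 h, 0.0404% to 15.9% at 48 h and 5.59% to 22.2% over time in the control. Whether the letters A, B and C pair the samples is not known. The deviations of same-lettered libraries had mean correlations between -0.03 and 0.07, which 3 libraries per group cannot settle. The replicate block changed the control calls over time by adding SRP54 (0.22, edgeR adjusted p = 0.0418) and those with Arg by dropping SSR4 (-0.22, adjusted p = 0.0603). Over all genes the block gave 28% called over time in the control (19.9% without it) and 26.2% with Arg (28.3%). For Arg against control it gave 6.47% at 24 h (6.63%) and 1.26% at 48 h (0.117%). The median over time with Arg changed sign without Arg replicate A at 24 h, and the median interaction, 0.01 with all libraries, lay between -0.01 and 0.06 when a library was left out. SRPRB, SSR3, RPN1, STT3A, SSR4 and SEC63, where called over time, kept their sign under the alternatives run. The causes of these shifts were not tested.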
